A study of Homo sapiens with 5 samples.

Results

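USP genes encode the largest family of deubiquitinases, the proteases that take ubiquitin off other proteins. Their expression was followed here in a colorectal cancer line treated with siRNAs against another family member, USP17. The genes were chosen by name as the protein-coding genes whose symbol is USP followed by a number, with or without X, and USP18 and the USP17L copies that encode USP17 were left out. This gave 50 genes of 60651 listed, of which 19885 are protein-coding in GENCODE 29. The study measured poly(A) RNA of COLO 320DM, a line grown from a human colorectal adenocarcinoma and known for its amplified MYC gene, in 5 libraries that each carried a different siRNA. Its stated interest is how USP17 bears on beta-catenin in colorectal cancer. The USP17 siRNA group held 1 library each of siIDT, sino4 and siSMPLT, and the control siRNA group held 1 each of siNT and siL2. The series names siNT and siL2 as controls, which leaves siIDT, sino4 and siSMPLT as those aimed at USP17. Both groups are the same line with no altered allele in the labels, and the sources used here give no siRNA sequence, dose or time. Each duplex had a single library, and repeat cultures of a duplex are not stated. The p-values below thus reflect variation among 5 libraries of different siRNAs. Differences between duplexes, cultures and library preparations cannot be told apart in it.

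USP enzymes are cysteine proteases that share a catalytic fold shaped like a hand, in which a thumb, a palm and fingers hold ubiquitin. Outside that fold they differ widely, and their extra domains, cofactors and location set which proteins they act on. Members of the family trim ubiquitin at the proteasome, act on histones, DNA repair factors and p53 regulators, sort receptors at endosomes, and act on components of the beta-catenin destruction complex, the machinery lost or altered in most colorectal cancers.

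The line's markers stood partly as its label would have them. Of 7 colon epithelial markers 5 were at a mean of 1 TPM (RSEM's transcript level per gene length) or more, while CDH1 (0.066 TPM) and VIL1 (0.038 TPM) were near 0. The colon markers summed to 1686, 1651 and 1710 TPM in siIDT, sino4 and siSMPLT and to 1963 and 2038 TPM in siNT and siL2, most of it CDX2, which was lower (log2 fold change -0.31, edgeR adjusted p = 0.0162). CDH17 went the other way, with 20.4, 20.4 and 18.6 TPM in siIDT, sino4 and siSMPLT and 10.6 and 10.4 TPM in siNT and siL2 (log2 fold change 0.88, edgeR adjusted p = 0.00285), and EPCAM, KRT8 and KRT18 were not called. MYC lay at 2491 to 2583 TPM in the USP17 siRNA libraries and at 3162 and 2712 TPM in siNT and siL2. Its log2 fold change of -0.26 was not called (edgeR adjusted p = 0.0519). Neither the summed colon markers nor MYC overlapped between the groups, and the part of either in the results below was not tested. By read counts the groups did not overlap in 45.9% of all tested genes. Of 6 markers of other cell types 4 reached 1 TPM. The list summed to 34.4, 32.1 and 34.7 TPM in siIDT, sino4 and siSMPLT and to 36.6 and 31.7 TPM in siNT and siL2. Among the 4, PTPRC had a mean of 18.1 TPM, COL3A1 7.28 TPM and COL1A1 6.62 TPM. Uniquely placed reads on their own strand, scaled to library size (CPM), backed these levels in every library. PTPRC had 41.65 to 51.66 CPM, COL3A1 21.7 to 30.4 CPM and COL1A1 12.5 to 16.9 CPM. CD68, also 1 of the 4, had a mean of 1.51 TPM but almost no such reads in any library. In bulk RNA, fewer cells of one kind and less RNA per cell cannot be told apart. Libraries held 31704821 to 36276143 reads in genes. Each of the 30 USP17L genes had 0 uniquely placed reads on its own strand in every library. Reads shared among these copies are not in those counts, so they do not settle whether the line expresses USP17. The targeted gene thus gives no check of the labels.

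COLO 320DM cells expressed most of the family. A mean of 1 TPM or more over the 5 libraries was reached by 43 of the 50 genes (86%), against 58.1% of all protein-coding genes. Among expressed genes the median was 35.4 TPM for the USP genes and 24.6 TPM for protein-coding genes, and 26 of the 43 lay above the second value. By mean level, 16 USP genes were at 50 TPM or more, 22 between 10 and 50 TPM, 5 between 1 and 10 TPM, and 7 under 1 TPM. The step between expressed and unexpressed genes was wide, with USP35 lowest of those expressed at 4.07 TPM and USP26 highest of the rest at 0.156 TPM. Summed over the family, levels came to 2109, 2081 and 2066 TPM in siIDT, sino4 and siSMPLT and to 2024 and 1924 TPM in siNT and siL2, about 0.192% to 0.211% of all transcripts.

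The 8 highest genes took 46.2% of that sum. USP7, which acts on MDM2 and p53, led with a mean of 161 TPM, followed by USP10, a cytoplasmic enzyme that also acts on p53, at 152 TPM. USP22, the deubiquitinase of the SAGA coactivator, stood at 149.9 TPM. USP34, a very large enzyme reported to act on axin, was at 104 TPM, and USP39, a spliceosome component without protease activity in most accounts, at 97.8 TPM. Next came USP5 at 96.3 TPM, which takes apart free ubiquitin chains, USP14 at 94.2 TPM, which sits on the proteasome, and USP1 at 88.0 TPM, which acts on the DNA repair proteins FANCD2 and PCNA. The order from USP39 to USP1 lies within the spread of libraries, since USP39 alone had 115.8 TPM in siNT and 85.1 TPM in siL2, a range that covers the means of USP5, USP14 and USP1.

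**Figure D1:**
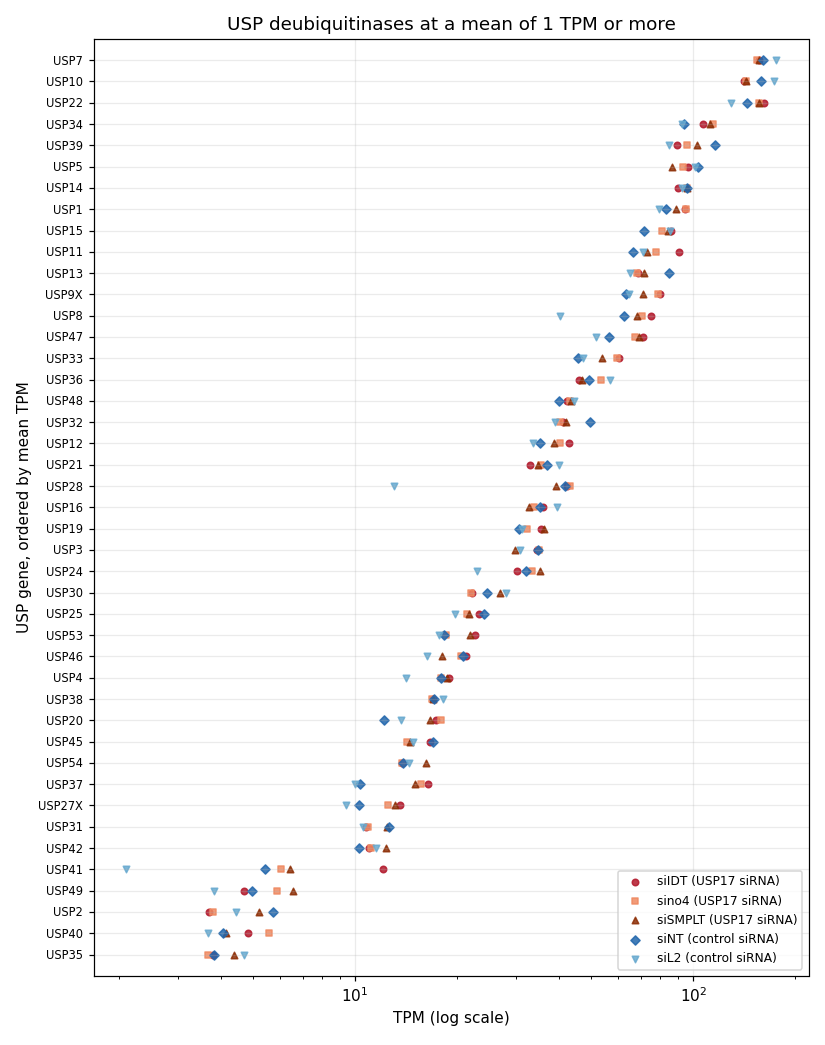
Level of each of the 43 expressed USP genes in TPM on a log axis, ordered by the mean of the 5 libraries, with 1 symbol per library. The libraries lie close together for most genes, and the siL2 symbols of USP28, USP8 and USP41 stand to the left of the others.

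Of the 7 genes under 1 TPM, USP26 (0.156 TPM) is known mainly from testis, and USP29 (0 TPM) is an imprinted gene. USP44 (0.052 TPM) acts on histones and at the mitotic checkpoint, USP43 stood at 0.030 TPM, and USP51, a copy of USP22, at 0.106 TPM. USP6, an ape-specific gene known from oncogenic fusions, stood at 0.004 TPM, while USP32, the gene from which part of it derives, was at 42.5 TPM. USP29 had 0 reads in each library, where the limit for a count of 0 (3 reads) is 0.0849 to 0.0938 CPM (reads scaled to library size). USP50, classed as inactive, had 0.118 TPM and lies on the strand opposite USP8. Of all reads over USP50, 99.3% were on that opposite strand, and the USP50 strand itself held only 3 to 8 reads per library.

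Closely related genes were often both expressed, at unequal levels. USP22 stood at 12.7 times USP27X, which can take its place in the same histone deubiquitinating module. USP7 stood at 2.56 times its relative USP47, USP36 at 4.48 times USP42, and USP12 at 1.97 times USP46. USP4 was at 0.215 times USP15 and USP20 at 0.291 times USP33. USP5 and USP13 lay closer, at a ratio of 1.34, and USP11 and USP15 at 0.929. These are ratios of mean TPM over the 5 libraries.

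The level of 1 expressed gene is uncertain. USP41 had a mean of 6.40 TPM from RSEM, but only 0, 1 and 0 uniquely placed reads in siIDT, sino4 and siSMPLT and 0 and 2 in siNT and siL2. It is a near copy of USP18, and RSEM shared out 28.3, 14.3 and 14.8 reads to it in siIDT, sino4 and siSMPLT and 14.1 and 7.75 in siNT and siL2. Its low siL2 symbol in the plot of levels therefore rests on shared reads. Among the genes tested, the widest excess of RSEM counts over uniquely placed reads was in USP13 (1.72 times) and USP32 (1.29 times), so the levels of these genes depend on how shared reads were placed.

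Few USP genes differed between USP17 siRNA and control siRNA. Enough reads for a test were found for 44 of the 50 genes, and USP41, USP50, USP44, USP43, USP6 and USP29 were not tested. With edgeR's quasi-likelihood test and Benjamini-Hochberg adjustment over all 16341 tested genes, 4 of the 44 passed an adjusted p of 0.05 (9.09%), where 10.5% of all tested genes did. All 4 were higher in the USP17 siRNA libraries (background for higher 4.64%), and none was lower (background for lower 5.82%). At an unadjusted p of 0.05 the count was 17 genes (38.6%, background 28.9%), of which 12 were higher (background 14.2%) and 5 lower (background 14.7%). The share called in either direction was thus close to that of all genes. With both controls in the fit, the calls and the lower p-values lay more on the higher side than over all genes. How the calls split by direction changed when either control was left out, as given below.

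The sizes were modest too. Log2 fold changes ran from -0.60 to 0.60, with a median of 0.04, against a median of 0.01 over all tested genes. The median absolute log2 fold change was 0.17 for the USP genes and 0.20 for all genes. Among genes at a mean of 10 CPM or more that order was reversed, with 0.169 for 40 USP genes and 0.159 for 9432 genes. At that level 4 of the USP genes were called (10%, background 14.19%). A log2 fold change above 0 was found for 28 of 44 genes (63.6%, background 50.7%). In 21 genes (47.7%, background 45.9%) the groups did not overlap, 13 of them with the USP17 siRNA libraries higher (background 23.3%) and 8 with them lower (background 22.6%). In none of the 44 did all 3 USP17 siRNA libraries stand 1.5-fold or more outside the controls (background 2.25%), and USP37 alone stood at least 0.32 outside them on the log2 scale (background 8.13%). For scale, CTNNB1, which encodes beta-catenin, had 198, 200.3 and 200.5 CPM in siIDT, sino4 and siSMPLT and 326 and 355 CPM in siNT and siL2, a log2 fold change of -0.77 (edgeR adjusted p = 0.00215), larger in size than that of any USP gene tested.

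**Figure D2:**
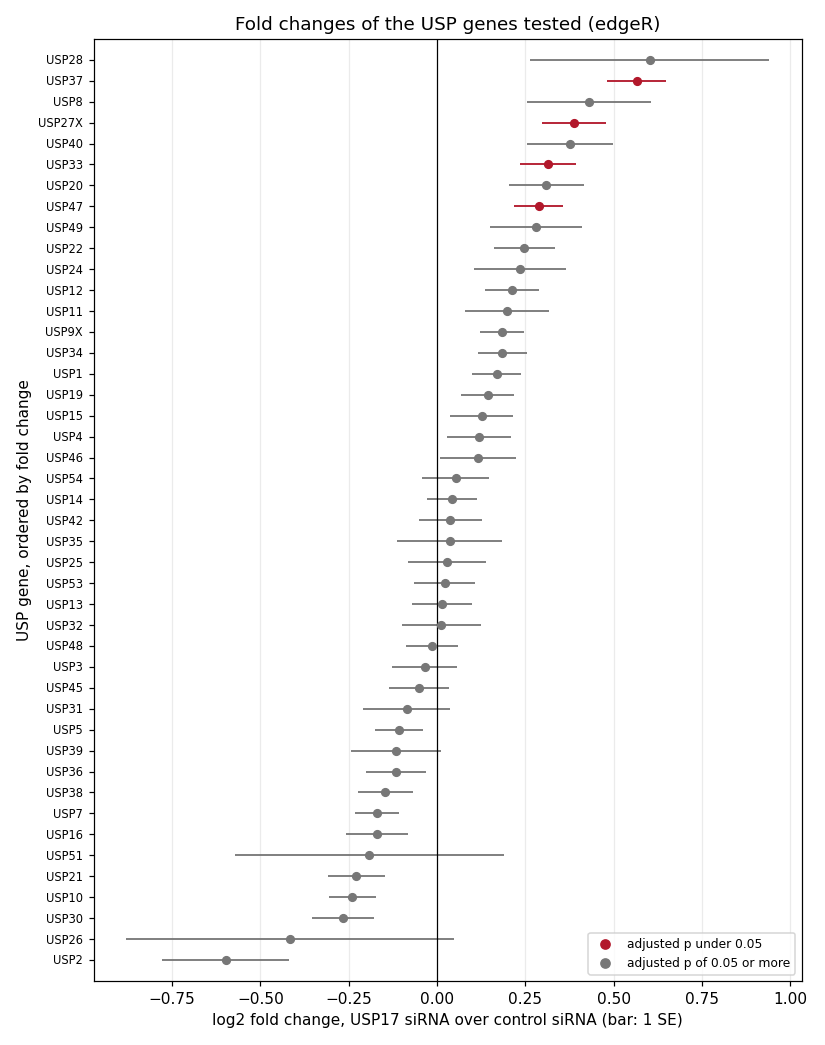
Log2 fold change of USP17 siRNA over control siRNA for the 44 USP genes tested, from edgeR, with bars of 1 standard error. Red points passed an adjusted p of 0.05 over all genes: USP37, USP27X, USP33 and USP47, all to the right of 0. USP28 has the highest value, 0.60, with a bar several times as long as that of USP37.

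USP37, which removes ubiquitin from cyclin A and is reported to stabilise MYC, lies on chromosome 2 (GRCh38, chr2:218450251-218568361, minus strand). It had 76.7, 78.6 and 76.5 CPM in siIDT, sino4 and siSMPLT, against 55.4 and 49.0 CPM in siNT and siL2. All of the USP17 siRNA libraries lay above both controls, and they differed less among themselves than the controls did. The means were 77.25 ± 1.13 CPM (SD, n = 3) and 52.2 ± 4.48 CPM (SD, n = 2), a 1.48-fold difference (log2 0.57 ± 0.08 SE, edgeR adjusted p = 0.00938). The call held in 12 of 13 other fits and was lost without sino4 (edgeR adjusted p = 0.0665), a fit in which only 130 genes of all passed (0.803%).

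USP27X, an intronless copy of USP22 on the X chromosome (chrX:49879948-49882565, plus strand), had 28.2, 26.9 and 28.0 CPM in siIDT, sino4 and siSMPLT, against 22.0 and 20.3 CPM in siNT and siL2. The groups did not overlap, and the log2 fold change was 0.39 ± 0.09 SE (edgeR adjusted p = 0.0319). USP47, which acts on DNA polymerase beta and has been reported to stabilise beta-catenin, lies on chromosome 11 (chr11:11841423-11959323, plus strand). It had 258, 245 and 242 CPM in the USP17 siRNA libraries in the same order, against 209 and 198 CPM in siNT and siL2. Again each USP17 siRNA library was above both controls, with a log2 fold change of 0.29 ± 0.07 SE (edgeR adjusted p = 0.0360). USP33, which acts on receptors as they recycle and is bound by the von Hippel-Lindau protein, lies on chromosome 1 (chr1:77695987-77759852, minus strand). It had 139, 136 and 123 CPM in siIDT, sino4 and siSMPLT, against 106 and 108 CPM in siNT and siL2. Here siSMPLT was nearest the controls, and the log2 fold change was 0.31 ± 0.08 SE (edgeR adjusted p = 0.0420). Each of USP27X, USP47 and USP33 lost its call in 4 of 13 other fits, with edgeR adjusted p of up to 0.136, 0.151 and 0.187.

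**Figure D3:**
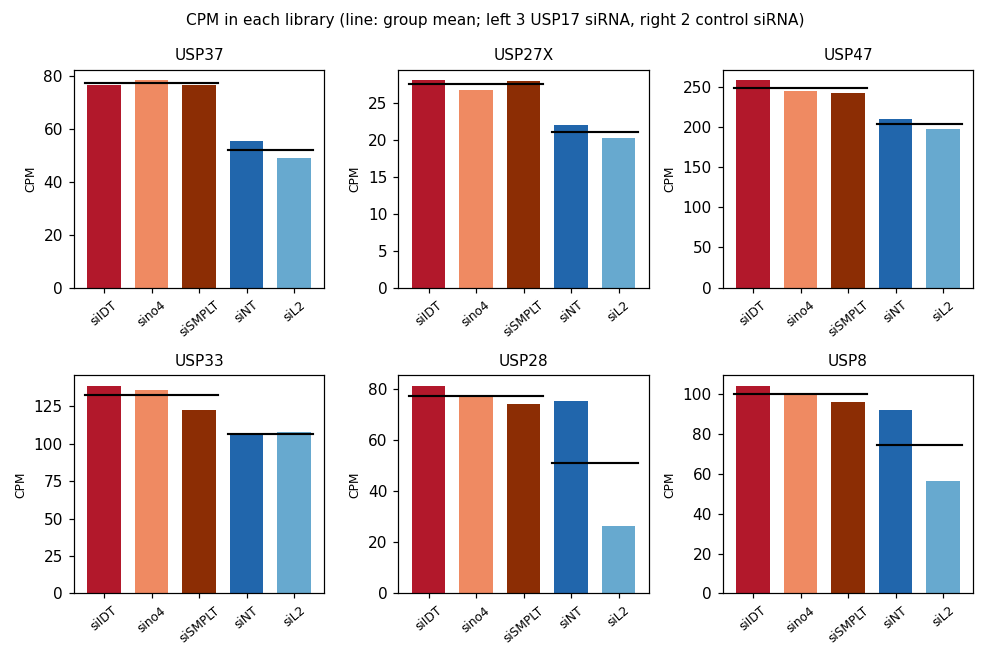
CPM in each library for the 4 USP genes that passed the test (USP37, USP27X, USP47, USP33) and for USP28 and USP8, with USP17 siRNA libraries in reds on the left, control siRNA libraries in blues on the right and a line at each group mean; each axis starts at 0. In the first 4 panels both controls are low, while in USP28 siL2 alone is. In USP8 siL2 is lowest, and siNT lies just below the USP17 siRNA libraries.

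Among the other genes tied to p53, DNA repair and the cell cycle, values lay on both sides of 0. USP7 had 402, 405 and 405 CPM in siIDT, sino4 and siSMPLT, against 441 and 468 CPM in siNT and siL2. The USP17 siRNA libraries were nearly equal and all below the controls, but the log2 fold change of -0.17 ± 0.06 SE did not pass (edgeR adjusted p = 0.117). USP10 had 249.9, 256 and 257 CPM in the same order, against 287 and 313 CPM in siNT and siL2, again without overlap. Its log2 fold change of -0.24 ± 0.07 SE just missed the threshold (edgeR adjusted p = 0.0576) but was called when DESeq2 was used (Wald test, adjusted p = 0.0286). USP7 and USP47, which resemble each other in sequence, thus had fold changes of opposite sign, and the USP7 level was 2.21 to 2.30 times that of USP47 in the USP17 siRNA libraries and 2.86 and 3.41 times in siNT and siL2. USP48 (log2 fold change -0.01) and USP45 (-0.05), the second of which acts with the ERCC1 repair nuclease, had similar levels in both groups. Of the 8 genes tested in this group, 2 passed, both higher (background for higher 4.64%), and the median log2 fold change was -0.03.

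The histone deubiquitinases had 1 call among 9 tested, USP27X (background 10.5%), and a median log2 fold change of -0.035. USP22 had 514.6, 514 and 462 CPM in siIDT, sino4 and siSMPLT, against 449.97 and 388 CPM in siNT and siL2. The groups did not overlap, but siSMPLT and siNT nearly met, and the log2 fold change of 0.25 ± 0.09 SE did not pass (edgeR adjusted p = 0.1025) and was 0.14 without siL2. The nucleolar enzyme USP36, which acts on MYC as well as on histones, had 105, 115 and 101 CPM in siIDT, sino4 and siSMPLT, against 110 and 122 CPM in siNT and siL2, with the groups overlapping and a log2 fold change of -0.12, or -0.04 without siL2. USP21 (log2 fold change -0.23), which removes ubiquitin from histones and from inflammatory signalling proteins, and USP16 (-0.17), which acts on histones in mitosis, were lower without overlap, and neither passed. USP3 (-0.03), USP42 (0.04), USP49 (0.28) and the barely expressed USP51 (-0.19) overlapped between the groups.

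In 3 sets every gene had the same sign. The enzymes USP4, USP11, USP15, USP20 and USP33, which carry a DUSP domain, were all above 0 in log2 fold change (5 of 5, background 50.7%), with a median of 0.20 and 1 call, USP33. USP32 and USP48 carry the domain too but were grouped elsewhere, and their log2 fold changes were 0.01 and -0.01. Levels of the 5 genes summed to 273, 254 and 246 TPM in siIDT, sino4 and siSMPLT, against 214 and 231 TPM in siNT and siL2. USP20, the nearest relative of USP33, had nearly the same log2 fold change (0.31 ± 0.11 SE) without a call (edgeR adjusted p = 0.0972). Its locus carries reads of C9orf78 on the other strand, 18.4% of all reads there, and these were left out by counting on the gene's own strand. USP1 had 227, 233 and 216 CPM in siIDT, sino4 and siSMPLT, against 205 and 196 CPM in siNT and siL2, without overlap. USP1, USP12 and USP46, which are switched on by WDR48, had log2 fold changes of 0.17, 0.21 and 0.12, none of them called. WDR48 itself had a log2 fold change of 0.20 (edgeR adjusted p = 0.131).

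The very large enzymes USP9X, USP24 and USP34 were the third set. USP9X, the family's highest gene in CPM and an enzyme that stabilises MCL1 and has been tied to beta-catenin, had 622.5, 594 and 581 CPM in siIDT, sino4 and siSMPLT, against 527 CPM in both siNT and siL2. The controls were almost equal and all 3 USP17 siRNA libraries lay above them, yet the log2 fold change of 0.18 ± 0.06 SE did not pass (edgeR adjusted p = 0.0971). USP34 had 378, 416 and 412 CPM in the same order, against 357 and 351 CPM in siNT and siL2 (log2 fold change 0.18, edgeR adjusted p = 0.125). USP24 had 189, 214 and 227 CPM, against 205 and 152 CPM in siNT and siL2, so that siNT lay within the range of the USP17 siRNA libraries, and its log2 fold change of 0.23 was 0.03 without siL2. These sets are small and were singled out after their values were seen, so their shared sign is a description.

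The enzymes of ubiquitin recycling differed little. USP14 had 201, 218 and 211 CPM in siIDT, sino4 and siSMPLT, against 210.3 and 198 CPM in siNT and siL2, with overlap and a log2 fold change of 0.04. USP5 had 156, 159.6 and 149 CPM in the same order, against 168 and 166 CPM in siNT and siL2, a log2 fold change of -0.11 that did not pass (edgeR adjusted p = 0.339). Its relative USP13 stood at 0.01. Genes classed as inactive were similar: USP39 had 108, 128 and 130.2 CPM in siIDT, sino4 and siSMPLT, against 150.3 and 114 CPM in siNT and siL2, and the log2 fold changes of USP53 and USP54 were 0.02 and 0.05.

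On membranes and organelles, USP30, the mitochondrial enzyme that opposes mitophagy, had a log2 fold change of -0.27 ± 0.09 SE without a call (edgeR adjusted p = 0.0903). USP19, anchored in the endoplasmic reticulum, stood at 0.14 and the Golgi enzyme USP32 at 0.01. USP2, which acts on cyclin D and on clock proteins, had 5.48, 7.40 and 7.78 CPM in siIDT, sino4 and siSMPLT, against 11.8 and 9.08 CPM in siNT and siL2. Its libraries did not overlap between groups, and its log2 fold change, the lowest in the family, was -0.60 ± 0.18 SE (edgeR adjusted p = 0.0698). USP40 lay the other way, at 15.5, 14.7 and 12.8 CPM in siIDT, sino4 and siSMPLT, against 10.6 and 11.6 CPM in siNT and siL2 (log2 fold change 0.38, edgeR adjusted p = 0.0845). USP25 (0.03), USP31 (-0.09), USP35 (0.04) and USP38 (-0.15) did not pass.

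Genes of the family with reported roles in Wnt or MYC biology had 1 call in each list. Of 12 USP genes reported to act on Wnt and beta-catenin signalling, 11 were tested and 1, USP47, was called (background 10.5%). A log2 fold change above 0 was found in 9 of the 11 (background 50.7%), 5 were higher without overlap (background 23.3%) and 2 lower without overlap (background 22.6%), and the median was 0.13, against 0.01 over all genes. Of 6 reported to stabilise MYC, 5 were tested and 1, USP37, was called (background 10.5%). A log2 fold change above 0 was found in 3 of the 5 (background 50.7%) and below 0 in 2, with a median of 0.25, against 0.01 over all genes. The highest fold changes of the lists, USP8 (0.43) in the first and USP28 (0.60) in the second, were 0.12 and 0.04 without siL2.

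The controls were themselves apart in 2 genes. USP28, which works with the ubiquitin ligase subunit FBXW7 to stabilise MYC, lies on chromosome 11 (chr11:113797874-113875570, minus strand). It had 81.3, 76.8 and 74.3 CPM in siIDT, sino4 and siSMPLT, against 75.5 CPM in siNT and 26.5 CPM in siL2. siNT lay among the USP17 siRNA libraries, and siL2 alone was low. The group means were 77.5 ± 3.52 CPM (SD, n = 3) and 51.0 ± 34.6 CPM (SD, n = 2), and the log2 fold change of 0.60 ± 0.34 SE did not pass (edgeR adjusted p = 0.282). Against siNT by itself the log2 differences of siIDT, sino4 and siSMPLT were 0.11, 0.02 and -0.02, and against siL2 by itself they were 1.61, 1.53 and 1.48. In siL2 it lay at -1.53 on the log2 scale from the mean of the other 4 libraries, which placed it at rank 42 from the lowest of 16341 tested genes (0.257%).

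USP8, which takes ubiquitin off receptors at endosomes and partners STAM2, lies on chromosome 15 (chr15:50424380-50514419, plus strand). It had 104, 99.8 and 96.4 CPM in siIDT, sino4 and siSMPLT, against 92.4 CPM in siNT and 56.3 CPM in siL2. siL2 was again the lowest, at -0.80 on the log2 scale from the mean of the other 4 libraries, but siNT too lay just below every USP17 siRNA library. The log2 fold change of 0.43 ± 0.18 SE did not pass (edgeR adjusted p = 0.150) and was 0.12 without siL2. These were the only 2 of the 44 genes with the controls at least 1.5-fold apart (4.55%, background 12.9%). At a gap of 0.32 or more on the log2 scale the count was 11 (background 30.6%), of which 10 were higher in siNT (background 15.8%) and 1, USP35, was lower (background 14.9%). USP24 (log2 siNT minus siL2 of 0.43) and USP35 (-0.42) were among them, and so was USP26 (0.54), which had 5, 9 and 13 reads in siIDT, sino4 and siSMPLT and 16 and 10 in siNT and siL2. USP35 had 8.44, 7.96 and 8.25 CPM in siIDT, sino4 and siSMPLT, between 6.85 CPM in siNT and 9.19 CPM in siL2.

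**Figure D4:**
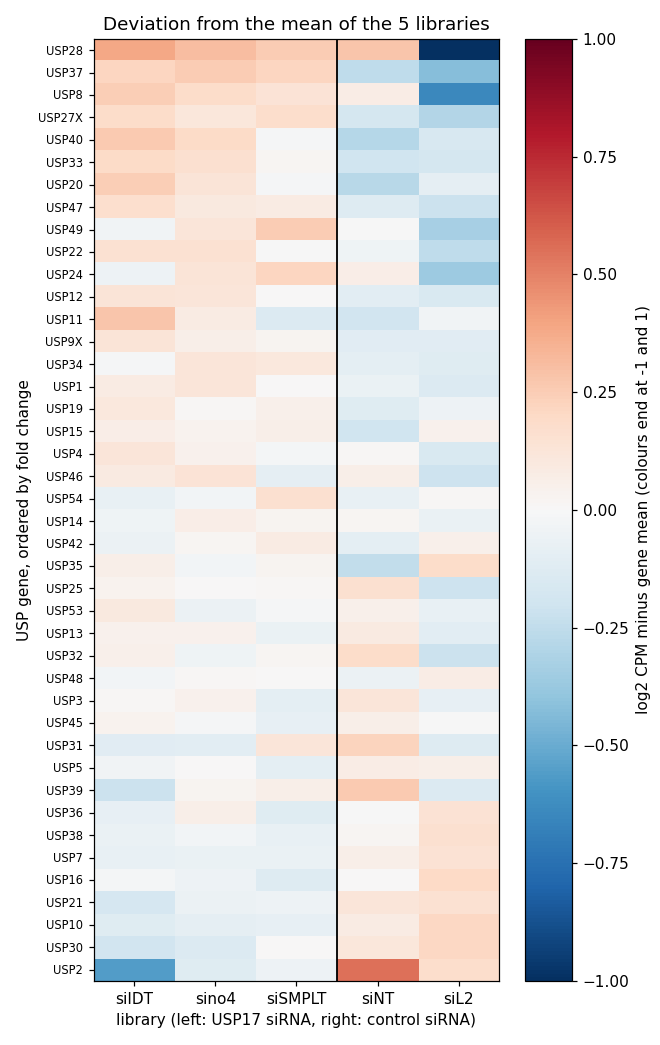
Difference of each library's log2 CPM from the mean of the 5 libraries for the 42 USP genes at 1 TPM or more that were tested, ordered by fold change, red above and blue below the mean, with colours ending at -1 and 1. The siL2 column holds the darkest cells, for USP28 and USP8. The library farthest from the gene mean was siL2 in 22 of the 42 genes and siNT in 10. The same count was not made over all tested genes, and a mean over all libraries leans towards the larger group.

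Which USP genes passed therefore depended on the control used. Without siL2, USP33 and USP37 (higher) and USP2 (lower) passed, 3 of 44 genes (6.82%, background 14.4%). Without siNT, 10 passed (22.7%, background 15.5%): USP28, USP22, USP37, USP8, USP24, USP49, USP47 and USP27X were higher in the USP17 siRNA libraries, and USP10 and USP7 were lower. USP37 passed with either control. In both fits the lone control is assumed to vary as the USP17 siRNA libraries do.

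An earlier reading of these same libraries had picked out short words in 3' untranslated regions whose carriers were low in a library or a group, so the USP genes that carry them are shown as a description. The word GATCATC was picked for siL2, and 6.41% of 12470 tested genes with a 3' untranslated region carried it, as did 5 of the 44 USP genes (11.4%). The sites of 4 of these are given on GRCh38 with the 7 bases of the word in capitals, from chr11:113798533-113798561 (minus), chr16:23065939-23065967 (minus), chr17:21001626-21001654 (minus) and chr15:63591742-63591770 (plus), in the order listed.
USP28: acttgactgaaGATCATCcattaatagtt
USP31: accaaataagaGATCATCtatatcaggaa
USP22: tgcaggaacagGATCATCtgtctcagcgg
USP3: ggatttacttgGATCATCacccgcacttc

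The USP28 site, at base 690 of a 1366-base 3' untranslated region, belongs to the gene that stood farthest down in siL2. Set against the mean of the other 4 libraries, siL2 ran from -1.53 for USP28 to -0.10 for USP3 on the log2 scale over the 5 carriers. The median was -0.32 for the 5 carriers and -0.08 for the other tested USP genes, while over all genes with a 3' untranslated region it was -0.20 for carriers and 0.01 for the rest. USP8, second lowest in siL2, had no copy in its 3' untranslated region, and 1 elsewhere in its transcripts. USP2, USP11, USP24, USP25, USP34, USP39, USP40 and USP9X likewise had 1 copy outside that region only. Over its whole transcripts USP28 had up to 3 copies. The part of the word in any of these values was not tested.

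The word ATCACTC had been picked for its carriers' lower level in the USP17 siRNA libraries, and 8.06% of the same genes carried it. The USP genes with it are shown because USP7, the family's highest gene, is one of them. The sites are at chr16:8892891-8892919 (minus), chr3:179788360-179788388 (plus), chr12:109087376-109087404 (plus) and chr4:52597521-52597549 (minus).
USP7: agaatcagcaaATCACTCttatttttcat
USP13: ccactccataaATCACTCtaaaagagttt
USP30: aagcccaggtgATCACTCttctgctgggc
USP46: ccactaatggtATCACTCcgagtctcaat

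Their log2 fold changes were -0.17, 0.01, -0.27 and 0.12 in the order listed, so that both signs occurred and none passed the test. The median was -0.08 for these 4 and 0.05 for the other tested USP genes, and over all genes -0.11 for carriers and -0.01 for the rest. A further word, TCACTCA, was picked for the same comparison, overlaps ATCACTC in sequence and was carried by 12.4% of all genes. Of the 44 USP genes 6 carried it, with a median log2 fold change of 0.14 against 0.04 for the rest. The site of USP37, the gene with the lowest p in the family, is at chr2:218454423-218454451 (minus), and USP37 was higher, not lower, in the USP17 siRNA libraries.
USP37: cttgagtagttTCACTCAagtctgtaacc

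Outside the numbered genes, few deubiquitinases and relatives were called. Of 44 genes of the UCH, OTU, Josephin, JAMM, MINDY and ZUFSP families and of USP-fold genes named otherwise, some of which have no protease activity, 41 were tested, 1 was called higher (background 4.64%) and 1 lower (background 5.82%). CYLD, a USP-fold enzyme that restrains NF-kappaB signalling and cuts linear and other chains, had 124, 117 and 109.7 CPM in siIDT, sino4 and siSMPLT, against 79.5 and 78.6 CPM in siNT and siL2. Its libraries did not overlap between the groups, and the log2 fold change of 0.56 ± 0.08 SE was close to that of USP37 (edgeR adjusted p = 0.00814). MINDY3, from a family of proteases that trim ubiquitin chains, fell to 31.5, 30.0 and 29.8 CPM in siIDT, sino4 and siSMPLT, against 37.5 and 50.1 CPM in siNT and siL2 (log2 fold change -0.53, edgeR adjusted p = 0.0317). Without siL2 that change was -0.30 on the log2 scale and was not called. PSMD14, the proteasome's own deubiquitinase, had a log2 fold change of -0.25 without a call (edgeR adjusted p = 0.0576).

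Among 14 genes for cofactors and partners of USP enzymes, 3 rose (background for higher 4.64%). FBXW7, the ligase subunit that USP28 counters, had 79.5, 72.5 and 58.6 CPM in siIDT, sino4 and siSMPLT, against 44.8 and 50.5 CPM in siNT and siL2 (log2 fold change 0.56, edgeR adjusted p = 0.0327). STAM2, the endosomal partner of USP8, had 39.6, 38.4 and 33.5 CPM in the same order, against 24.1 and 29.4 CPM in siNT and siL2 (0.48, edgeR adjusted p = 0.0389). G3BP1, the stress granule protein that binds USP10, had 484, 461 and 439 CPM, against 389.8 and 380 CPM in siNT and siL2 (0.26, edgeR adjusted p = 0.0460). Across 13 other fits the call was lost in 3 for FBXW7, 3 for STAM2 and 6 for G3BP1, against 1 for CYLD and 4 for MINDY3. Without siNT neither FBXW7 nor STAM2 was called, and without siL2 G3BP1 was not. None of the 4 genes that encode ubiquitin was called.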

How the data were processed

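Poly(A) RNA of 5 COLO 320DM libraries was analysed, 3 with USP17 siRNA and 2 with control siRNA. Per the submitters' processing notes, bcl2fastq 2.20, STAR 2.7.1a and RSEM 1.3.2 were used with GRCh38; their annotation release and strand setting are not given in these sources. The authors deposited gene-level read counts in the format STAR writes, and those on the strand of the gene (18.7 to 19.9 times the opposite one) were used. Reads placed in several genes are not in those counts. The authors' RSEM tables hold expected counts, which share out such reads, and TPM, which served for levels between genes. Entries that name no gene (22.8% to 24.4% of reads) were left out.

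Symbols were found for 42023 genes, and positions and 3' untranslated regions came from GENCODE 29. For each gene only the longest 3' untranslated region among its coding transcripts was searched for the words. In R 4.3.3, edgeR 4.0.16 with filterByExpr (minimum count 10, minimum total 15) and TMM scaling compared the groups by a two-sided quasi-likelihood F test over all 16341 genes that passed, with p-values adjusted by Benjamini-Hochberg and a threshold of 0.05. Each fold change sets USP17 siRNA over control siRNA. CPM uses TMM-scaled library sizes, and library differences use log2 CPM with a prior count of 2. Alternatives were DESeq2 1.42.0 (size factors, and its Wald test), scaling by library size, limma-voom (limma 3.58.1), other filters and thresholds, the unstranded column, rounded expected counts and leaving out each library. Every count limit covers counting error only.

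The members, role groups, gene lists and 3' words were chosen with earlier results of these data known. Values in each library are given for called USP genes, the 8 highest in TPM, the 5 with the widest gap between controls, and USP7, USP9X, USP22, USP28, USP36 and USP47; of other lists, called genes and up to 3 with the smallest p. A marker list and a site are not reported here. Library values of USP2 and USP40 were added after they were seen.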

Additional observations from a re-analysis of the deposited data

How the results depend on the processing

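The calls rest on few libraries. Leaving out 1 library at a time gave 130 to 2633 called genes in place of 1710, 0 to 10 called USP genes in place of 4, and 0 to 10 called genes among other deubiquitinases, cofactors and ubiquitin genes in place of 5. The lowest counts came without sino4 and the highest without siNT. At an adjusted p of 0.10 the counts were 3074 (18.8% of all tested genes), 10 (22.7% of USP genes tested) and 13. DESeq2's Wald test called 8 of the other genes and 6 USP genes (13.6%, background 14.3%). Of these USP genes, USP2 and USP10 were lower (4.55%, background for lower 8.07%). Under other scaling, filters, limma-voom, the unstranded column and expected counts, the USP count was 3 or 4. All 3 USP17 siRNA libraries stood beyond both controls by 0.32 on the log2 scale in 1 USP gene and by any distance in 21, in place of 0 at 1.5-fold, and the controls were 0.32 apart in 11, in place of 2 at 1.5-fold. The log2 fold change of USP35 was -0.0063 with expected counts. Leaving out 1 library, it ranged from -0.162 to 0.262 for USP35, from -0.00084 to 0.0826 for USP14 and from -0.300 to 0.0961 for USP39, each crossing 0. The cause of these changes was not tested. No paired analysis was possible because replicate numbers follow sample order and link no libraries. Depth limits the genes of fewest reads: USP26 and USP51 had 5 to 16 reads per library.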

Other observations

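Among expressed USP genes other than USP20, reads on the opposite strand made up 8.33% of reads over USP49, 6.35% over USP3, which overlaps USP3-AS1, 4.45% over USP35 and 3.66% over USP34. The call count was 4 USP genes with these reads included. USP18, left out of the numbered genes, had 238, 276 and 236 uniquely placed reads in siIDT, sino4 and siSMPLT and 311 in siNT and 136 in siL2, so that siL2 was lowest, as it was in USP28 and USP8. The ratio of USP25 to its relative USP28 was 0.549, 0.495 and 0.554 in siIDT, sino4 and siSMPLT, 0.574 in siNT and 1.52 in siL2, in TPM.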
